A study of Mus musculus with 6 samples.

Results

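Immediate early genes are transcribed within minutes of a growth factor, cytokine or stress signal and need no new protein for it. Signals passing through the MAP kinases ERK, JNK and p38 reach factors already bound at their promoters, among them serum response factor and CREB, and the short-lived transcripts then encode transcription factors of their own. Fos and Jun proteins pair through leucine zippers to form AP-1, which binds DNA at promoters and enhancers, while products such as Dusp1 switch the kinases off again. In the gut the same genes are known as targets of mitogens, wounding and inflammation, and also of tissue handling.

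The 10 immediate early genes described here are Fos, Fosb, Jun, Junb, Jund, Egr1, Atf3, Ier2, Ier3 and Dusp1. They were taken by name from the platform annotation, keeping every probe set (a group of array probes for 1 transcript) whose annotation named that gene alone. All 10 were found among the 12393 genes named this way, by 11 of the 22626 probe sets that are not controls, with 2 for Jun and 1 for each other gene. They were measured in intestinal tumors of Rb1 deficient Apc1638N mice, 3 from the duodenum and 3 from the cecum, with 1 array per tumor and 6 different mice. Both groups are labelled as carrying the Apc1638N allele, which predisposes to intestinal tumors, and as deficient in the retinoblastoma gene Rb1. Tissue from tumors arising at the pylorus could be part of the duodenal group, per the labels. The labels used here do not say how Rb1 was inactivated or how old the mice were. The question the design puts is how the 2 tumor sites compare. No normal tissue was analysed here, so a difference between sites may be one between the normal tissues as well. Intensities are linear MAS5 values that the authors scaled to a common level per array, and they compare tumors for a given probe set, not genes with each other.

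The arrays had median intensities of 164.6 to 181.8, and their number limits the precision of all values here. Of the 22626 probe sets, 13866 lay above the 40th percentile of their array (92.4 to 100.6) on at least 3 of the 6 arrays and were tested. Rb1 ranged from 306.7 to 387.5 over the 6 tumors, above each array's median, so its signal does not itself show a loss of Rb1. Whether its probe set lies in a deleted part is not given in the sources used here, and the value does not tell the groups apart, since both carry the same label. The epithelial keratins Krt8, Krt18 and Krt19 had intensities of 8215 or more in every tumor, and the gastric and pyloric genes Gkn1, Tff2 and Gkn2 were high in all 3 duodenal tumors and at 92.6 or less in all cecal tumors.

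The start regions of the members that had the highest folds, Dusp1, Atf3 and Fos, are shown with that of Jun, whose fold was near 0, because they hold letters of the cyclic AMP response element through which CREB and ATF proteins bind. Each is the 250 bases before the RefSeq transcription start, 5′ to 3′ on the gene's strand, build GRCm38.p6. Capitals mark the element TGACGTCA or its core TGACGT on either strand, which overlap in the full element, and in Jun the related TGACATCA.
Dusp1, chr17:26508473-26508722, minus strand: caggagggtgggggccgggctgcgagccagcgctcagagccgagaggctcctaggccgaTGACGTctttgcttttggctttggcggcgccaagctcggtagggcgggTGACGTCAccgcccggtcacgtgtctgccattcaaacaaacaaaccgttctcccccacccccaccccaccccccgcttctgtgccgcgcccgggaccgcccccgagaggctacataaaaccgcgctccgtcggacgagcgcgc
Atf3, chr1:191183334-191183583, minus strand: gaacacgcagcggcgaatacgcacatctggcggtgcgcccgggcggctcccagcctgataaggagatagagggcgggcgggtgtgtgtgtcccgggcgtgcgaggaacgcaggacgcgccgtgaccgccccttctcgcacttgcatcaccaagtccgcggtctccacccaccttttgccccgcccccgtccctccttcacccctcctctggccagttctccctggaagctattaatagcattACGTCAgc
Fos, chr12:85473640-85473889, plus strand: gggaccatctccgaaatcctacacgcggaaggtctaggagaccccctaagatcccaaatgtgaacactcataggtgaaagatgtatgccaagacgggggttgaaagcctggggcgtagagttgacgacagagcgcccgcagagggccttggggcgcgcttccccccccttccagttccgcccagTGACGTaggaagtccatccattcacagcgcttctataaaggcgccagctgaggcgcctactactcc
Jun, chr4:95052223-95052472, minus strand: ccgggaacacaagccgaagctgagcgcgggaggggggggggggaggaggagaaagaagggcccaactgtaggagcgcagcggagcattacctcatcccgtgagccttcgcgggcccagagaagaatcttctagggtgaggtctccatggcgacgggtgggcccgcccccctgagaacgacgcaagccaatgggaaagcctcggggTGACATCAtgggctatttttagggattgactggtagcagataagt

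Start regions were found for 8 of the 10 members (all but Egr1 and Ier2). The core TGACGT, on either strand, was present in 3 of the 8, Dusp1, Atf3 and Fos, and in 6.47% of the 32851 windows of all genes. In Dusp1 it began 191 and 143 bases before the start, the latter within the full element TGACGTCA, which 1.55% of all windows hold. In Fos it began 66 bases before the start, and in Atf3 8 bases before it on the reverse strand. The Jun element TGACATCA began 45 bases before the start and was present in 1 of the 8 and in 2.93% of all windows. The AP-1 site TGACTCA was in 0 of the 8 windows and in 4.46% of all, and the serum response factor site known as the CArG box in 0 of the 8 and in 1.47%. These are matches of letters within 250 bases, found after the promoters and the folds had been seen, and they say nothing of binding in these tumors.

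Dusp1 and Atf3 were higher in cecal than in duodenal tumors, by 1.87-fold and 1.64-fold. Fos was 1.62-fold higher and missed the threshold in the main fit, which has no replicate block (limma adjusted p = 0.0538). It passed with the block (0.0346), which pairs tumors of equal replicate number. That pairing was taken from these same data and not from the labels, so a call made only with the block is not separate support. No member was called lower in cecal tumors in either fit. Of the 10 member probe sets tested, 2 passed without the block and 3 with it (limma, Benjamini-Hochberg adjusted over all 13866, threshold 0.05), all higher in cecal tumors. Among all tested probe sets without the block 5.24% passed in that direction, 4.07% in the other and 9.30% in either. Jun, Egr1 and Ier2, which belong to the same early response, had folds within 0.13 of 0 on the log2 scale.

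**Figure D1:**
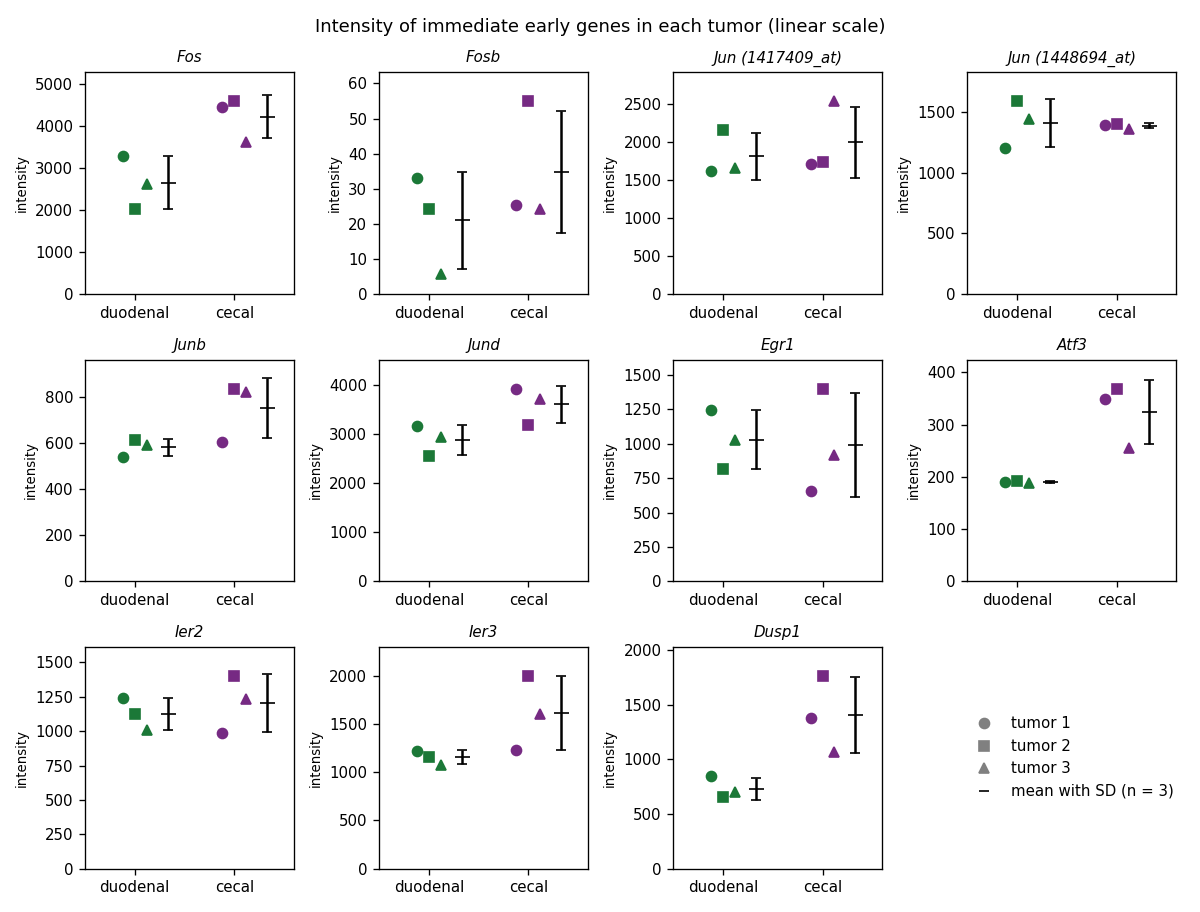
Intensity (linear scale, each panel from 0) of the 11 member probe sets in each tumor, with circles, squares and triangles for tumors 1, 2 and 3 and bars for the mean with SD (n = 3). Dusp1, Atf3, Fos, Ier3 and Jund do not overlap between the sites, whereas Egr1, Ier2 and both Jun probe sets do.

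Dusp1 encodes a phosphatase that removes phosphate from p38, JNK and ERK and so ends the signal that induced it. Its intensity was 847, 654.6 and 697 in duodenal tumors 1, 2 and 3 and 1377, 1767 and 1069.7 in cecal tumors 1, 2 and 3. All cecal tumors lay above all duodenal tumors, and cecal tumor 2 was the highest. The means were 732.9 ± 101.1 (SD, n = 3) and 1404 ± 349 (n = 3), a log2 fold of 0.90 ± 0.20 (SE, limma adjusted p = 0.0255). The call was kept in all 9 alternatives that used every array (adjusted p 0.0153 to 0.0377). It was lost without cecal tumor 1 (0.087), cecal tumor 2 (0.0813), duodenal tumor 2 (0.0641) or duodenal tumor 3 (0.0804), fits that have fewer arrays. Over all 6 such fits the log2 fold stayed between 0.72 and 1.08.

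Atf3, a leucine zipper factor of the ATF family that is induced by stress and can repress transcription, had 189.8, 191.3 and 188.1 in duodenal tumors 1, 2 and 3. In cecal tumors 1, 2 and 3 it had 348.8, 369.3 and 255.1. The duodenal tumors were nearly equal, with an SD of 1.6 around 189.7, and the cecal tumors all lay higher, at 324.4 ± 60.9 (SD, n = 3 each). The log2 fold was 0.71 ± 0.17 (SE, limma adjusted p = 0.0371). The call was lost when dim probe sets were left in (0.0649) and without cecal tumor 1 (0.123), cecal tumor 2 (0.144), duodenal tumor 1 (0.102), duodenal tumor 2 (0.0733) or duodenal tumor 3 (0.0937). Without cecal tumor 3, the lowest of its site, the adjusted p was 0.0185.

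Fos, the founding partner of Jun in AP-1, had 3279, 2022 and 2616 in duodenal tumors 1, 2 and 3 and 4447, 4578 and 3622 in cecal tumors 1, 2 and 3. The sites did not overlap, and the lowest cecal value, in tumor 3, was close to the highest duodenal value, in tumor 1. The means were 2639 ± 629 and 4216 ± 518 (SD, n = 3 each), with a log2 fold of 0.69 and a 95% confidence interval of 0.27 to 1.11 (limma adjusted p = 0.0538). Besides the blocked fit, Fos passed with median centring (0.047) and without duodenal tumor 1 (0.0298). With the block 6.12% of all tested probe sets passed in that direction. Fosb, a second Fos family member, stayed between 5.8 and 54.9 in all 6 tumors. That is below the 40th percentile of each array, so Fosb was not tested and its order between sites is not settled.

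The Jun family, which pairs with Fos proteins in AP-1, showed smaller differences. Jund, known for steady expression in resting cells, had 3149, 2544 and 2939.9 in duodenal tumors 1, 2 and 3 and 3919.7, 3179 and 3698 in cecal tumors 1, 2 and 3. The sites were separated by a small gap, between duodenal tumor 1 and cecal tumor 2. The log2 fold was 0.32, with an interval of 0.02 to 0.62, and did not pass (limma adjusted p = 0.181, or 0.0862 with the block). Junb, which can oppose Jun in growth control, gave 543.1, 615.3 and 594.2 in the duodenum and 605.3, 838.9 and 823.3 in the cecum. Cecal tumor 1 lay among the duodenal values while the other cecal tumors were higher. The log2 fold was 0.35, with an interval of -0.01 to 0.71 (limma adjusted p = 0.231).

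Jun was read by 2 probe sets that placed the cecal tumors differently. The brighter gave 1611, 2159.7 and 1653 in duodenal tumors 1, 2 and 3 and 1711, 1735 and 2532 in the cecal tumors, so that cecal tumor 3 was the highest of the 6. The other gave 1203, 1589 and 1443 in the duodenum and 1396, 1404 and 1362.5 in the cecum, with cecal tumor 3 the lowest of its site. Both placed duodenal tumor 2 above the other duodenal tumors. The log2 folds were 0.13 (interval -0.30 to 0.56, limma adjusted p = 0.744) and -0.02 (interval -0.32 to 0.29, adjusted p = 0.962). Neither is a call, and the brighter set turned to -0.06 without cecal tumor 3.

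Egr1, a zinc finger factor and the usual companion of Fos after serum or wounding, varied most within the cecal site among the tested members. Duodenal tumors 1, 2 and 3 gave 1244, 817.5 and 1028, and cecal tumors 1, 2 and 3 gave 655.7, 1401 and 918.7. Both the highest and the lowest of the 6 values were cecal, and cecal tumor 2 was 2.14 times cecal tumor 1. The log2 fold was -0.10 with a wide interval of -0.72 to 0.52 (limma adjusted p = 0.868). Whether Egr1 and Fos differ in their response to site was not tested. Ier2, a nuclear protein of the early response, gave 1243, 1128 and 1011 in the duodenum and 983.7, 1404 and 1237 in the cecum. Its sites overlapped and the log2 fold was 0.09 (interval -0.28 to 0.46, limma adjusted p = 0.795).

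Ier3, which modulates cell survival and ERK signaling, had 1227, 1163 and 1080.2 in duodenal tumors 1, 2 and 3. It had 1233, 2006 and 1609 in the cecal tumors. The lowest cecal tumor barely cleared the highest duodenal tumor, and cecal tumor 2 stood well above the rest. The log2 fold of 0.45 ± 0.18 (SE) did not pass (limma adjusted p = 0.175; 0.0627 to 0.434 with an array left out). In all, 5 of the 10 member probe sets had sites that did not overlap, each with the cecal tumors higher, where 13.8% of all tested probe sets did so in that direction and 29.5% in either. The median log2 fold was 0.34 over the 10 member probe sets and -0.04 over all 13866.

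**Figure D2:**
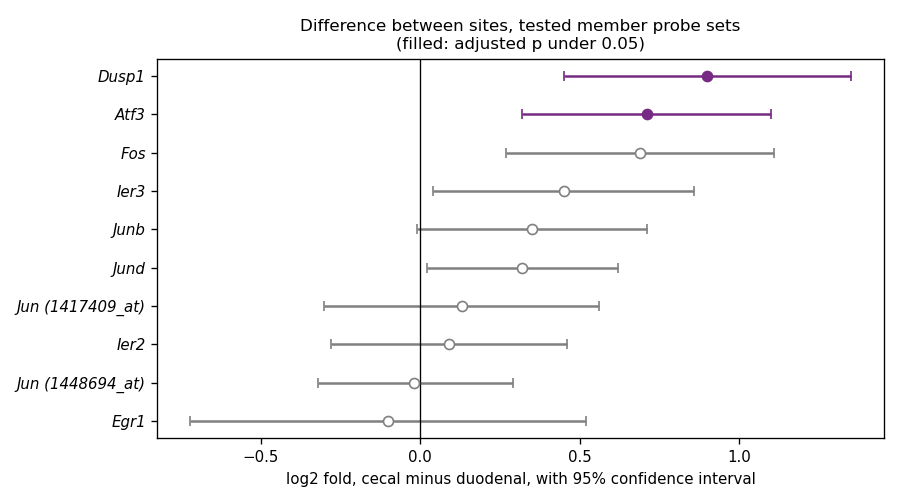
Log2 fold (cecal minus duodenal) of the 10 tested member probe sets with its 95% confidence interval, filled where the adjusted p was under 0.05. Dusp1 at 0.90 and Atf3 at 0.71 are filled, Fos follows at 0.69, and the intervals of Junb, both Jun probe sets, Ier2 and Egr1 hold 0.

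The members did not follow a single order of tumors. Taking the brightest probe set of each of the 9 tested genes, cecal tumor 2 was the highest of the 6 tumors for 7 genes. Jun was highest in cecal tumor 3 and Jund in cecal tumor 1. Cecal tumor 1 was the lowest of its site for 5 genes (Jun, Junb, Egr1, Ier2 and Ier3), yet for Dusp1, Atf3 and Fos it was well above cecal tumor 3. On the log2 scale, cecal tumor 1 deviated from the mean of the 6 tumors by 0.45 for Dusp1, 0.47 for Atf3 and 0.43 for Fos, and by -0.57 for Egr1 and -0.23 for Ier2. Among duodenal tumors, tumor 1 was the highest for 6 genes and tumor 2 for 3, and tumor 3 for none of the 9.

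**Figure D3:**
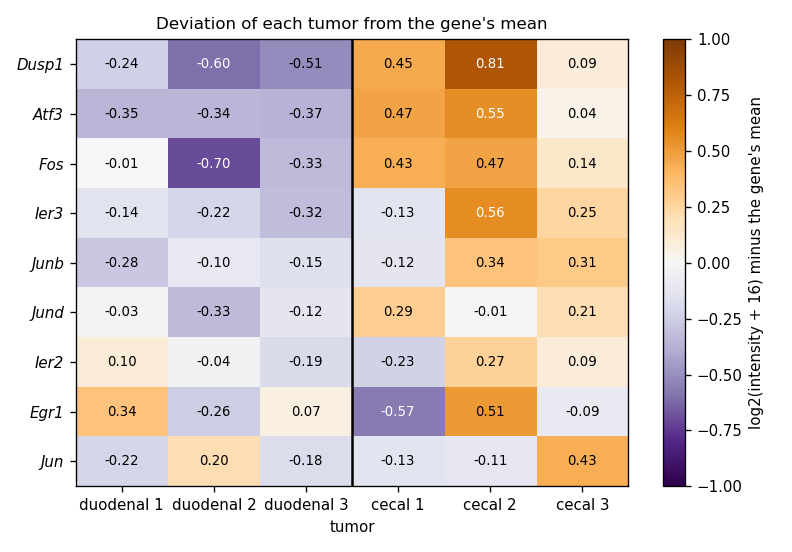
Log2(intensity + 16) of each tumor minus the gene's mean over the 6 tumors, for the brightest probe set of the 9 tested genes, with duodenal tumors left and cecal tumors right of the line. Cecal tumor 1 is above the mean for Dusp1 (0.45), Atf3 (0.47) and Fos (0.43) and below it for Egr1 (-0.57), while cecal tumor 2 is above the mean for Egr1 (0.51) as well.

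The genes most like Fos were found by the root mean square difference of log2 values over the 6 tumors, each gene centred on its own mean, among 8128 other genes. The first was Thnsl2 (difference 0.0646), then the glycosyltransferase gene Mgat4b (0.0777), Tradd, which encodes an adaptor of the tumor necrosis factor receptor (0.0819), and Synpo, which encodes an actin-associated protein (0.0879). Mgat4b gave 1787, 1261 and 1589 in the duodenum and 2766, 2949 and 2286 in the cecum, with the lowest value in duodenal tumor 2 as for Fos. Among the members Dusp1 came nearest, at rank 85 (0.188), followed by Atf3 at rank 153 (0.21). Egr1 and Jun stood at ranks 4684 and 5043. The points share 6 arrays and the site difference, so closeness says little beyond that.

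A wider list of 49 other immediate early genes was chosen with earlier results of these data known, so its counts are not separate support. It was read the same way, each gene by its brightest tested probe set. A probe set naming the gene alone was found for 48, and 43 were tested. Of these 43, 5 rose in cecal tumors and none fell, where 5.70% of all 8129 genes rose, 4.75% fell and 10.4% did either. By the same count, 2 of the 9 tested members rose. The median log2 fold was 0.28 over the 43 and -0.05 over all genes. With the block 8 of the 43 rose, and with array weights 10. Of all 13866 probe sets, 848 and 1019 rose in those fits, against 726 in the main fit. Without cecal tumor 1 or cecal tumor 2, 0 of the 43 rose, and without cecal tumor 3, 6 rose. Without duodenal tumor 1, 1 rose, and without duodenal tumor 2 or 3, 2 rose. All probe sets that rose without cecal tumors 1, 2 and 3 numbered 382, 387 and 668, and without duodenal tumors 1, 2 and 3, 493, 601 and 537. Dropping either the filter or the intensity trend gave 3 of the 43.

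Klf6, a zinc finger factor of the Krüppel family induced by injury, gave 940.7, 785 and 622.8 in duodenal tumors 1, 2 and 3 and 1789.7, 1826 and 1231 in the cecal tumors. The sites did not overlap, and cecal tumor 3 was the lowest of its site, as for Dusp1, Atf3 and Fos. The log2 fold was 1.03 ± 0.20 (SE, limma adjusted p = 0.0177; 0.0762 without cecal tumor 1, 0.0748 without cecal tumor 2 and 0.0554 without duodenal tumor 3). Both other Klf6 probe sets passed as well, at 1.19 and 1.16. Rhob, a small GTPase of actin and vesicle traffic that is itself an early gene, rose by 0.74 ± 0.16 (SE, adjusted p = 0.0234). It was higher in all cecal tumors (4820.3 to 5679.7) than in any duodenal tumor (2640.3 to 3959).

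Gadd45a, a growth arrest and DNA damage gene, rose by 0.82 ± 0.18 (SE, limma adjusted p = 0.0266), from 248.8 ± 34.3 to 454.1 ± 85.8 (SD, n = 3 each). Mcl1, a short-lived survival protein of the Bcl2 family, rose by 0.56 ± 0.14 (SE, adjusted p = 0.0408). Mcl1 had 5 other tested probe sets, of which 1 passed, with log2 folds of 0.07 to 0.48. The fifth gene was Klf10, a factor induced by TGF-beta, named after its values were seen, at 0.86 ± 0.21 (SE, adjusted p = 0.0434). All tumors of the cecum exceeded all of the duodenum for these 3 genes too. The calls of Rhob, Gadd45a, Mcl1 and Klf10 were kept in 2, 2, 1 and 1 of the 6 fits that leave out an array and were lost in each without cecal tumor 1, cecal tumor 2 or duodenal tumor 1. The highest adjusted p for these 4 was 0.0915, 0.099, 0.13 and 0.134.

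**Figure D4:**
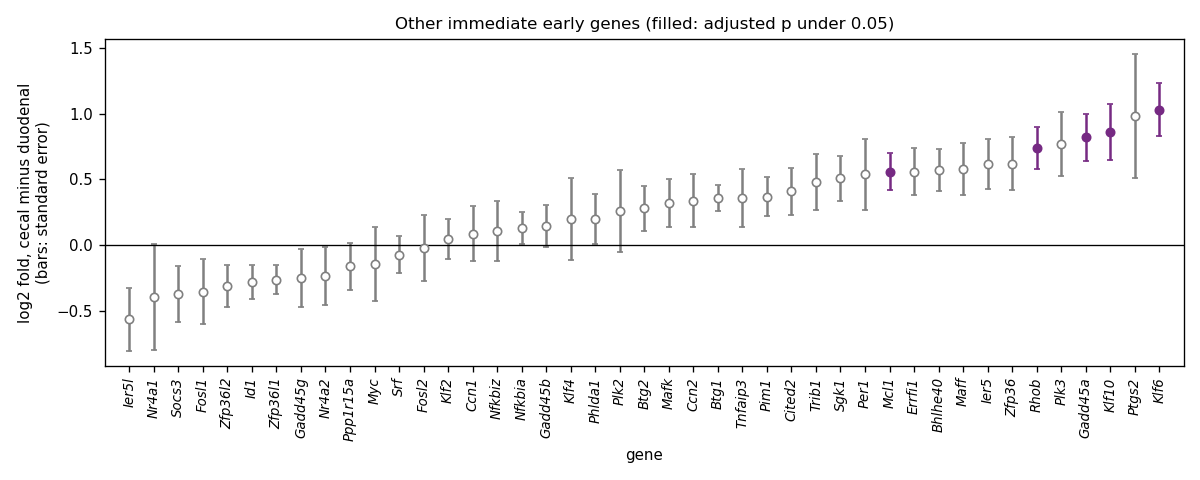
Log2 fold (cecal minus duodenal) with its standard error for the 43 tested genes of the wider early gene list, in order of fold, filled where the adjusted p was under 0.05. The filled genes are Mcl1, Rhob, Gadd45a, Klf10 and Klf6, and 13 genes have a negative fold.

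Ptgs2, the inducible cyclooxygenase, named after its values were seen, gave 299.9, 295 and 284.5 in duodenal tumors 1, 2 and 3 and 280.1, 1377 and 533.6 in the cecal tumors. Cecal tumor 2 stood far above the other 5 tumors, and the log2 fold of 0.98 ± 0.47 (SE) did not pass (limma adjusted p = 0.257). The early factors Myc (log2 fold -0.14) and Nr4a1 (-0.39), also named after their values were seen, overlapped between the sites.

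Upstream of the members, 2 of 13 tested MAP kinase cascade genes rose in cecal tumors and none fell, where 5.70% of all genes rose. With dim probe sets left in, without the intensity trend or with the mean of a gene's probe sets, 1 rose. Map2k1, the kinase MEK1 that activates ERK, gave 1554, 1541 and 1617 in the duodenum and 2551, 2726 and 2094 in the cecum. The cecal tumors were all higher, and the log2 fold was 0.63 ± 0.13 (SE, limma adjusted p = 0.0196). Map2k3, which activates p38, rose by 0.50 ± 0.13 (SE, adjusted p = 0.0468), and its second probe set, at 0.29, did not pass (0.304). The call of Map2k1 was lost without cecal tumor 1 (0.0733), cecal tumor 2 (0.0879) or duodenal tumor 1 (0.0709), and that of Map2k3 without any array but cecal tumor 3 (0.0724 to 0.175). Of 7 tested regulators around serum response factor and CREB, 0 passed in limma, and 0 had an unadjusted p under 0.05. The brightest of them, Elk4 and Elk3, partners of serum response factor, both had a log2 fold of -0.07.

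Among the other MAP kinase inhibitors, 8 phosphatases, Sproutys and Spreds were tested. Of these, 0 passed in limma and 3 had an unadjusted p under 0.05. With the block or without the intensity trend 1 was called lower in cecal tumors, and with array weights 1 was called higher and 1 lower. The mean of Spred2 was 956.1 ± 57.2 in the duodenum and 1038 ± 136 in the cecum (SD, n = 3 each; limma adjusted p = 0.685). Dusp6, an ERK phosphatase, gave 554, 853.1 and 685.2 in the duodenum and 748, 1412.5 and 799.1 in the cecum, with cecal tumor 2 highest again (adjusted p = 0.35). Whether these differ from Dusp1 in their response was not tested. Of 10 tested leucine zipper partners of AP-1, 0 passed in limma, or 1 lower with quantile normalization, and 1 had an unadjusted p under 0.05. The brightest were Nfe2l2, the oxidant response factor NRF2, with a log2 fold of -0.46 (limma adjusted p = 0.0718), and Atf4 with -0.04.

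Downstream, 1 of 12 tested genes known as AP-1 targets rose and none fell, a share near the 5.70% of all genes that rose. It was Mmp9, a gelatinase made by many stromal and immune cells, with 82.4, 133.6 and 82.8 in duodenal tumors 1, 2 and 3 and 215.3, 324.4 and 301.3 in the cecal tumors. The sites did not overlap, and the log2 fold was 1.37 ± 0.23 (SE, limma adjusted p = 0.00967), a call kept with each of the 6 arrays left out. The fold of a second Mmp9 probe set, 1.14, missed the threshold (adjusted p = 0.0523). The list's count was 2 without cecal tumor 1 or duodenal tumor 1, and 0 with the filter at the 60th percentile, which left 7 genes tested.

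Heat shock genes, which respond to stress and handling, were mostly lower in cecal tumors in the means. Of 11 tested, 10 had a negative fold, with a median of -0.28, and 1 passed, Hspb1, named after its values were seen (log2 fold -1.18 ± 0.23 SE, limma adjusted p = 0.0168). Of all 8129 genes, 4592 had a negative fold, the median was -0.05 and 4.75% fell. With the block 5 of the 11 fell, with array weights 3, and without cecal tumor 3, 4 fell. In those fits 723, 920 and 511 of all 13866 probe sets fell, against 564 in the main fit. Without duodenal tumor 2, 2 of the 11 fell, and without cecal tumor 1 or duodenal tumor 3, 0 fell. All probe sets that fell there numbered 593, 276 and 319. The brightest, Hspa8, Hspa5 and Hspd1, had log2 folds of -0.01, -0.22 and -0.17. The list's summed intensity, which mostly follows its brightest genes, was 44980 to 57166 in duodenal and 37717 to 48920 in cecal tumors.

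The tumors are mixed tissue and the members are made by many cell types, so fewer cells of a type and less RNA per cell cannot be told apart. Epithelial markers had a summed intensity of 57624 to 65278 in duodenal and 69930.0 to 73592 in cecal tumors, with 2 of 8 higher in cecal tumors (limma) and none lower. These were Cldn7, kept with each array left out, and Vil1, kept in 1 of those 6 fits, and both were picked out with their values known. The count was 4 with array weights or without duodenal tumor 3, 3 with the block or quantile normalization, and 1 without the intensity trend or without cecal tumor 1, cecal tumor 2, duodenal tumor 1 or duodenal tumor 2. Over all 8129 genes, 5.70% rose in cecal tumors and 4.75% fell in the main fit. All 7 tested gastric and pyloric markers fell in cecal tumors, from a sum of 51983 to 74482 down to 568.3 to 831.8. Fibroblast markers summed to 11462 to 14731 and 16006 to 20331, with 1 of 6 higher, Col3a1, by the brightest probe set (lost without cecal tumor 1 or duodenal tumor 1). The count was 3 with the mean of a gene's probe sets or with array weights, 2 with the block or without duodenal tumor 3, and 0 without duodenal tumor 1. The second probe sets of Col3a1 (log2 fold 1.10, limma adjusted p = 0.0122), Col1a2 (0.70, 0.0377) and Col1a1, named after its values were seen (0.71, 0.0316), all passed. Macrophage markers summed to 6592 to 7316 and 7905 to 9666, and 0 of 6 passed in limma, with 3 at an unadjusted p under 0.05. A sum over different probe sets mostly follows the brightest of them. In these 4 lists the sums did not overlap between the sites. They were lower in cecal tumors for the gastric and pyloric markers and higher for the others. Single genes did not all follow the sums. Folds were positive for 7 of 8 epithelial, 6 of 6 fibroblast and 5 of 6 macrophage markers, and for 3537 of all 8129 genes. The log2 folds of Krt18 and Cd68, the latter named after its values were seen, were both -0.14. Dusp1, Atf3 and Fos were also higher in cecal tumors without overlap, and 29.5% of all tested probe sets did not overlap in either direction. Sums overlapped for smooth muscle, endothelial, lymphocyte and neutrophil markers, of which 0 of 6, 4, 2 and 2 tested genes passed in limma and 0, 1, 1 and 0 had an unadjusted p under 0.05. Most of the lymphocyte sum came from Jchain, at 5182 to 9974. Ptprc, the other tested lymphocyte gene, was higher in all cecal tumors (413.3 to 532.5) than in any duodenal tumor (317.2 to 399.1). Its difference did not pass (limma adjusted p = 0.134). Without cecal tumor 3, 1 endothelial gene was called higher, and without duodenal tumor 2, 1 smooth muscle gene lower. The neutrophil sum was highest in cecal tumor 3, at 1635, mostly from S100a8 (825.3) and S100a9 (656.7). The neural markers summed to 258.2 to 390.9 in duodenal and 143 to 200.9 in cecal tumors, also without overlap. The 1 tested gene, S100b, was lower in cecal tumors, with means of 168.4 and 18.9, and made most of that drop. The other neural markers were too dim to be tested. Among them Sox10 was higher in cecal tumors in the means (55.8 and 80.5) and the rest were lower. No listed marker was at exactly 0, and the neutrophil receptor gene Cxcr2, named after its values were seen, stayed at 20.1 or less in all tumors. The part of these shifts in the values of the members was not tested.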

How the data were processed

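Values are the linear probe set intensities deposited by the authors, which MAS5 produced, per the submitters' processing notes. No version, target or detection call is given in the sources used here. The mean between the 2nd and 98th percentiles was 499.1 to 499.9 on each array, so the authors had scaled the arrays. Groups and replicate numbers come from the titles. The platform annotation named the probe sets, and the 64 controls were left out.

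Values were compared as log2(intensity + 16), an offset that understates the change of dim genes, with limma 3.58.1 in R 4.3.3 (lmFit, eBayes with an intensity trend), two-sided, Benjamini-Hochberg adjusted over all 13866 tested probe sets. Folds are cecal minus duodenal. The fit was tested on simulated data. Figures used matplotlib 3.10.9.

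The members and lists were chosen with earlier results of these data known. Named genes were all members, the 4 genes nearest to Fos, up to 4 passing genes with the smallest p of each pathway list (or its 2 brightest), and up to 3 brightest of each marker and heat shock list. The text marks genes named outside this rule. Deviations from the site means had correlations of 0.274, 0.299 and 0.203 for the pairs of tumors with equal replicate numbers. The numbers were therefore taken to pair the tumors, a pairing that comes from the data alone. What the tumors of a pair, from different mice, would share is not known here. The main fit has no block.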

Additional observations from a re-analysis of the deposited data

How the results depend on the processing

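With 3 tumors per site, a call often missed the threshold when an array was left out, depending on which tumor it was. Without cecal tumor 1 or cecal tumor 2, 658 and 700 of all tested probe sets passed, and 0 member probe sets. Without cecal tumor 3, 1179 of all passed, and 2 member probe sets. The cause was not tested. With each array left out in turn, member probe sets called ranged from 0 to 2, all tested probe sets called from 658 to 1194 and genes called over the 6 pathway lists from 1 to 9, against 2, 1290 and 8 with all arrays. The member count was 1 with the filter at the 60th percentile, which leaves Atf3 untested, and 1 when dim probe sets were left in. In that fit 5 pathway genes passed, and with array weights 15 did, with 1939 of all probe sets. The replicate block gave 3 member probe sets, 1571 probe sets and 12 pathway genes, and it ended no member's call.

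Of 149 member values under the 15 alternatives, 127 kept direction and side of the threshold, 10 lost the call, 3 gained it and 9 turned direction, all in probe sets with folds near 0 that never passed. The second Jun probe set (-0.02) turned to 0.08 with array weights and 0.02 with median centring, and ran from -0.13 to 0.07 with an array left out. Egr1 turned to 0.00 with array weights and ran from -0.38 to 0.16 with an array left out. Ier2 ran from -0.03 to 0.23 and the brighter Jun probe set from -0.06 to 0.26. The cause was not tested. Signal limits Fosb, which was below the filter in every tumor.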
